A study of Mus musculus with 3 samples.

Results

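The cadherins and protocadherins were taken as every mouse gene whose symbol is Cdh followed by a number or starts with Pcdh, which gave 93 genes in the RefSeq annotation. Array probes were named through their RefSeq accession, so 58 of the 93 had a probe, and 46 passed the well-above-background call on 1 array or more. The same steps named 16358 genes in all, of which 13184 passed that call. Each array was hybridised with RNA from a pool of 3 whole mouse embryos of mixed genetic background. The triple null pool was MafF-/-:MafG-/-:MafK-/- at E10.5 (embryonic day). The other pools, called MafG-intact, came from MafF-/-:MafG+/+:MafK-/- embryos, 1 at E10.5 and 1 at E9.5. MafF and MafK were thus missing from every group, and no wild-type array was used here.

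Cadherins are calcium-dependent adhesion proteins whose extracellular repeats bind like molecules on the next cell and whose cytoplasmic tails hold catenins. Classical type I cadherins form strong junctions in epithelia, neural tube, heart and muscle, and type II cadherins mark subsets of neurons, mesenchyme and endothelium. Protocadherins lack the catenin-binding tail. The clustered protocadherins lie in 3 neighbouring arrays of genes, alpha, beta and gamma, from which each neuron expresses its own combination. Alpha and gamma transcripts join a variable first exon to constant exons shared by their cluster, whereas each beta gene is a single coding exon.

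The beta protocadherins were the group of members with the lowest median between the E10.5 pools among groups with over 2 measured genes. All 9 beta genes, of 22, above background on both E10.5 arrays were lower by 2-fold or more in the triple null than in MafG-intact embryos of the same day. The log2 differences ran from -2.17 to -1.08 with a median of -1.87. Beside them, 4.47% of 12529 genes were at least 2-fold lower in that comparison. With another background correction, normexp with an offset that draws dim signals together, 2 of the 9 stayed past 2-fold, beside 1.7% of all genes. The beta median was then -0.69 and Pcdhb18 was at 0.012. The 5 measured gamma genes, which follow the beta genes on the chromosome, differed by -0.0075 to 0.13. With 1 array per group there was no replicate check and no test, so "higher" and "lower" describe these 3 arrays. Less RNA per cell and fewer cells of a type cannot be told apart in whole-embryo RNA.

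Levels are given as log2 signal minus the 75th percentile of the array, so that 0 is a bright gene and the lowest signals well above background lay at -6.95 on the triple null, -7.04 on the MafG-intact E10.5 and -6.89 on the E9.5 array. A level compares 1 gene between arrays and not a gene with another gene. Of 41170 probes, 69.1% to 70.4% passed the call, and precision is limited by how few arrays there are. The probe of Cdh1 was printed 10 times and varied with an SD of 0.077 to 0.093 (log2) within an array, a spread of the printed spots that says nothing of the embryos. Mafg, the gene that differs by genotype, was not well above background in the triple null pool with a bound of at least 173-fold below the MafG-intact E10.5 pool. Maff (-1.70, -1.65 and -1.56) and Mafk (-3.97, -4.12 and -3.81), null by the labels in every group, still gave signal on all 3 arrays, and where their probes lie relative to the deleted parts is not known here. Signal for Xist was found in the MafG-intact E10.5 pool only, and for Uty, Kdm5d, Eif2s3y and Ddx3y of the Y chromosome in the other pools only. The sex of the embryos thus changes with the group wherever that pool is compared, and the 2 cannot be told apart there.

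**Figure D1:**
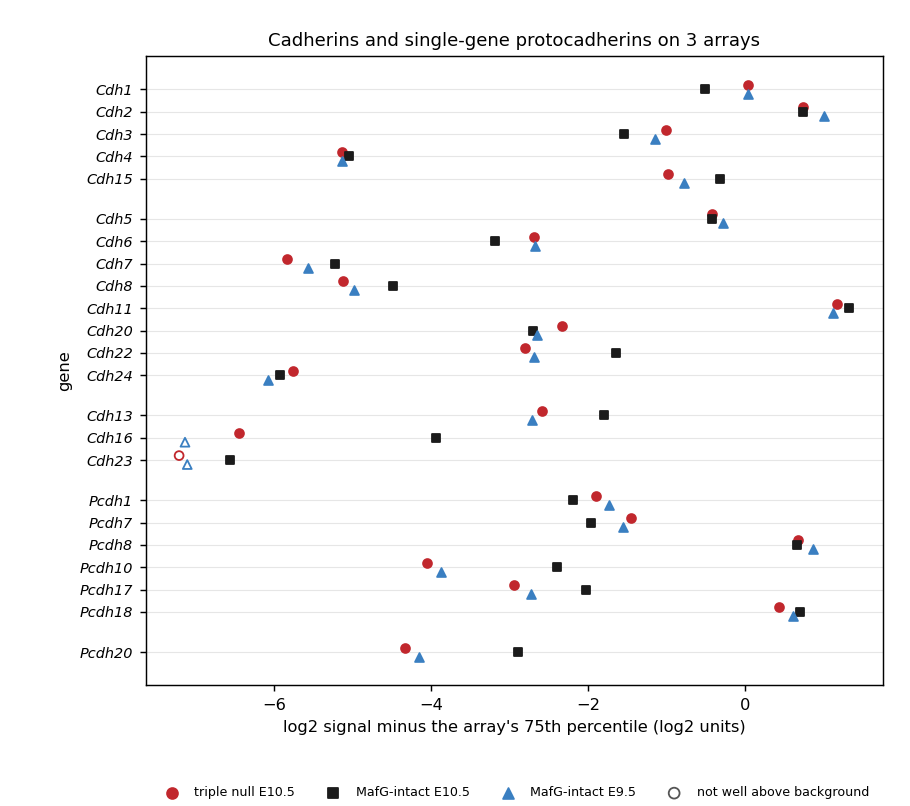
Levels of the 23 measured cadherins and single-gene protocadherins (log2 signal minus the 75th percentile of the array, horizontal axis) on the triple null E10.5 (circles), MafG-intact E10.5 (squares) and MafG-intact E9.5 (triangles) arrays, open symbols being signals not well above background. Pcdh10, Pcdh20, Cdh22 and Cdh16 have their square to the right of both other symbols, and Cdh1, Cdh3, Cdh6 and Pcdh7 have it to the left.

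The E10.5 pools, compared first, differ in MafG. All 5 type I cadherins were above background on every array and none was 2-fold apart in any comparison. Cdh1 (E-cadherin, the cadherin of epithelial junctions) lay at 0.04 in the triple null, -0.51 in the MafG-intact E10.5 and 0.03 in the E9.5 pool. Its E10.5 level in MafG-intact embryos was thus the lowest of the 3, the triple null being 1.46-fold higher. Its 10 spots ran from -0.63 to -0.39 there and from -0.04 to 0.16 on the triple null array. That is a spread of printed spots within 1 array each and not of embryos. Cdh3 (P-cadherin), another epithelial member, had the same order, at -1.01, -1.55 and -1.15.

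Cdh2 (N-cadherin, of neural tube, heart and somites) lay at 0.73, 0.74 and 1.00 on the same arrays, so the E10.5 pools differed by -0.0023. Cdh15 (M-cadherin, of skeletal muscle precursors) lay at -0.99, -0.32 and -0.78 and was 1.59-fold lower in the triple null pool. Cdh4 (R-cadherin, of retina and brain) was dim and nearly level, at -5.14, -5.04 and -5.14. The type I median difference was -0.0023, beside 0.06 over all 12529 genes.

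Of 8 measured type II cadherins, 1 was lower by 2-fold or more in the triple null, beside 4.47% of all genes, and none at least 2-fold higher, beside 0.982%. That gene was Cdh22, a brain cadherin, at -2.80, -1.64 and -2.69 in the triple null, MafG-intact E10.5 and E9.5 pools, or 2.22-fold lower than at E10.5. Cdh8 (-5.12, -4.49 and -4.99), known from subsets of neurons, and Cdh7 (-5.84, -5.22 and -5.57) were dim and stood in the same order by smaller steps of -0.63 and -0.61. Cdh6 went the other way, at -2.69, -3.18 and -2.68, with a difference of 0.49, and so did Cdh20 at 0.36, with both its probes above 0. Neither the endothelial Cdh5 (VE-cadherin, 0.0024) nor the mesenchymal Cdh11 (OB-cadherin, -0.15) was far from 0, and their probes fell on both sides of it. Cdh24 differed by 0.16, and the type II median was -0.07.

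Among the remaining cadherins, Cdh16 (Ksp-cadherin, of the epithelium of kidney tubules) was 5.73-fold lower in the triple null pool. It lay at -6.45 there and at -3.93 in the MafG-intact E10.5 pool, and at -7.13 in the E9.5 pool it was not well above background. The bound between the MafG-intact pools was at least 7.75-fold higher at E10.5. Of the mesonephros markers set beside it, Lhx1 was lower (-1.65) and Pax8 higher (1.28) in the triple null pool than at MafG-intact E10.5, Emx2 and Wt1 were at -0.75 and -0.52, Pax2 at 0.09, and the summed level of the 5 genes was 0.672, 1.24 and 0.690 times the 75th percentile in the triple null, MafG-intact E10.5 and E9.5 pools. All 5 were above background on every array, and their part in the Cdh16 result was not tested. Cdh13 (T-cadherin, held in the membrane by a lipid anchor) was at -2.58, -1.79 and -2.72, a difference of -0.79. Cdh23, part of the links between hair cell stereocilia, passed background in the MafG-intact E10.5 pool alone (-6.56), with a bound of at least 1.31-fold.

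Single-gene protocadherins split in the same manner. Pcdh10 (OL-protocadherin, of axon tracts in the brain) lay at -4.06 in the triple null, -2.40 in the MafG-intact E10.5 and -3.88 in the E9.5 pool, 3.15-fold lower in the triple null than at E10.5. In scanner units, which are not scaled between arrays, its signals were 64.8, 269 and 72.3. Pcdh20 stood at -4.34, -2.90 and -4.16 and was 2.72-fold lower. Both triple null values were near the E9.5 ones, with differences of -0.18 and -0.18. Pcdh17, also known from axons, was at -2.95, -2.02 and -2.73, short of 2-fold at -0.92.

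The other delta protocadherins were closer together. Pcdh7 was higher in the triple null pool by 0.51 (-1.46, -1.97 and -1.56) and Pcdh1 by 0.29. Pcdh8 (paraxial protocadherin, of the presomitic mesoderm) differed by 0.02, at 0.68, 0.65 and 0.86, and Pcdh18 by -0.27. The median of the 6 measured delta genes was -0.12.

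The RefSeq sequences before the gene start (GRCm38.p6) are shown for the 3 single-gene members that were at least 2-fold lower and had an entry, to show how unlike they are in composition. Each run covers 250 bases up to the start, 5′ to 3′ on the strand of the gene, with each CG dinucleotide in capitals.
Pcdh10, chr3:45378148-45378397, plus strand: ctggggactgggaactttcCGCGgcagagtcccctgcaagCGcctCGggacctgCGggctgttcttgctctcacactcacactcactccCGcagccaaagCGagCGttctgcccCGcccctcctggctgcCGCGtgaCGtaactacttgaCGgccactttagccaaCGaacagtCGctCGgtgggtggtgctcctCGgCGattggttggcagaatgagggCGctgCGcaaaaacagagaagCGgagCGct
Pcdh20, chr14:88471397-88471646, minus strand: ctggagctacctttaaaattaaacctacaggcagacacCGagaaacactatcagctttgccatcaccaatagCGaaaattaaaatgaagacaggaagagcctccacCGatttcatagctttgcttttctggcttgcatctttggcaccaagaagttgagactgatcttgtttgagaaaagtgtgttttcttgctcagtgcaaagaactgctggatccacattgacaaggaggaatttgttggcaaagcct
Cdh22, chr2:165234738-165234987, minus strand: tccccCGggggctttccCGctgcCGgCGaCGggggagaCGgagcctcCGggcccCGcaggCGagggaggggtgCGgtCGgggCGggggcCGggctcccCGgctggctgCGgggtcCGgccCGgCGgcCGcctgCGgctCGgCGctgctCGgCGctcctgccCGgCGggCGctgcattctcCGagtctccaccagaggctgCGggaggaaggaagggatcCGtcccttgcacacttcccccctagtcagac

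These windows differed widely in composition. Cdh22 held 30 CG dinucleotides and 77.6% G and C, Pcdh10 held 22 and 63.2%, and Pcdh20 held 3 and 42.4%, where the median over all 32851 windows was 6 and 52.4%. The antioxidant response element core, a sequence bound by small Maf heterodimers, TGACNNNGC, was searched on both strands and lay in 10.16% of all windows and in 1 of 25 member windows, that of Cdh15. That window is printed for this core, in capitals.
Cdh15, chr8:122848124-122848373, plus strand: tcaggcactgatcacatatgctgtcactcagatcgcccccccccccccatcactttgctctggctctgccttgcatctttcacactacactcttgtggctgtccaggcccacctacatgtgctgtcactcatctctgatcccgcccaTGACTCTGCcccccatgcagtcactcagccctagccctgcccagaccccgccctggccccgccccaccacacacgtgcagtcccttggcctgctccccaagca
The Maf core TGCTGA lay in 3 of 25 member windows (16.08% of all), the E-boxes CAGGTG and CAGCTG in 3 and 2 (17.22% and 13.0%), and the first part of the REST site, TTCAGCACC, in 1 (0.3%). TGCTGA lies whole within the REST part read on the other strand, so a REST match is also a match of the Maf core. The windows belong to 22 members, 14 of them measured here, and a match is only a match of letters. None of the 22 is a clustered protocadherin, so the beta genes were not searched.

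Clustered protocadherins held most of the members that stood apart. All 22 beta genes had a probe, and 15 passed background in the MafG-intact E10.5 pool, against 9 on the triple null and 9 on the E9.5 array. Over all 41170 probes, the shares that passed were 70.4%, 69.2% and 69.1% in that order. The 9 genes above background everywhere were Pcdhb3, Pcdhb5, Pcdhb6, Pcdhb7, Pcdhb17, Pcdhb18, Pcdhb20, Pcdhb21 and Pcdhb22, and each of these 9 had its highest level in the MafG-intact E10.5 pool.

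Pcdhb3 lay at -6.07 in the triple null, -3.90 in the MafG-intact E10.5 and -5.57 in the E9.5 pool, 4.49-fold lower in the triple null than at E10.5. Pcdhb20 lay at -5.30, -3.15 and -4.96, and its signals, not scaled between arrays, were 27.4, 160 and 34.1 scanner units. Pcdhb21, the brightest beta signal, lay at -3.90, -1.79 and -3.59, with unscaled signals of 72.0, 410 and 88.3. Each of these genes had 1 high array and 2 low ones, the triple null being the lowest.

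The levels of Pcdhb22 were -4.20, -2.39 and -3.77, and those of Pcdhb6 -5.45, -3.58 and -5.03. Pcdhb5 was at -5.14, -3.57 and -4.70, a 2.98-fold difference between the E10.5 pools. It was read by 1 of its 2 probes, the other (0.45) not being well above background on any array. Pcdhb7 (-6.12, -4.44 and -5.89) and Pcdhb18 (-6.31, -5.23 and -5.99) were dimmer and 3.21-fold and 2.11-fold lower. Pcdhb17 was read by 2 probes, at -2.13 and -1.61, and was 3.65-fold lower as their mean. The error that the scanner software gives for these differences ran from 0.17 for Pcdhb17 to 0.35 for Pcdhb18, and it covers the spots and not the embryos.

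Another 6 beta genes were above background in the MafG-intact E10.5 pool alone, which fixed the direction of their values in advance. Each value is the E10.5 level over the higher of the gene's own signal and the lowest signal well above background on the dim array. It is a bound only where that lowest signal was the higher. In the triple null, Pcdhb4 lay 2.89-fold below the E10.5 level by its own signal (-6.755), which is no bound. Pcdhb14 lay at least 2.46-fold below, and Pcdhb16 2.00-fold as the mean of its 2 probes (-0.86 and -1.29). Over all genes, 135 had such a value 2-fold or more lower in the triple null and 40 higher. The bounds of Pcdhb19, Pcdhb15 and Pcdhb2 were 1.96-fold, 1.87-fold and 1.24-fold. Pcdhb1 and the 6 neighbours Pcdhb8 to Pcdhb13 were not well above background on any array. Beta genes are alike in sequence, and the probe sequences were not used here, so probes of a beta gene may also have bound transcripts of another.

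**Figure D2:**
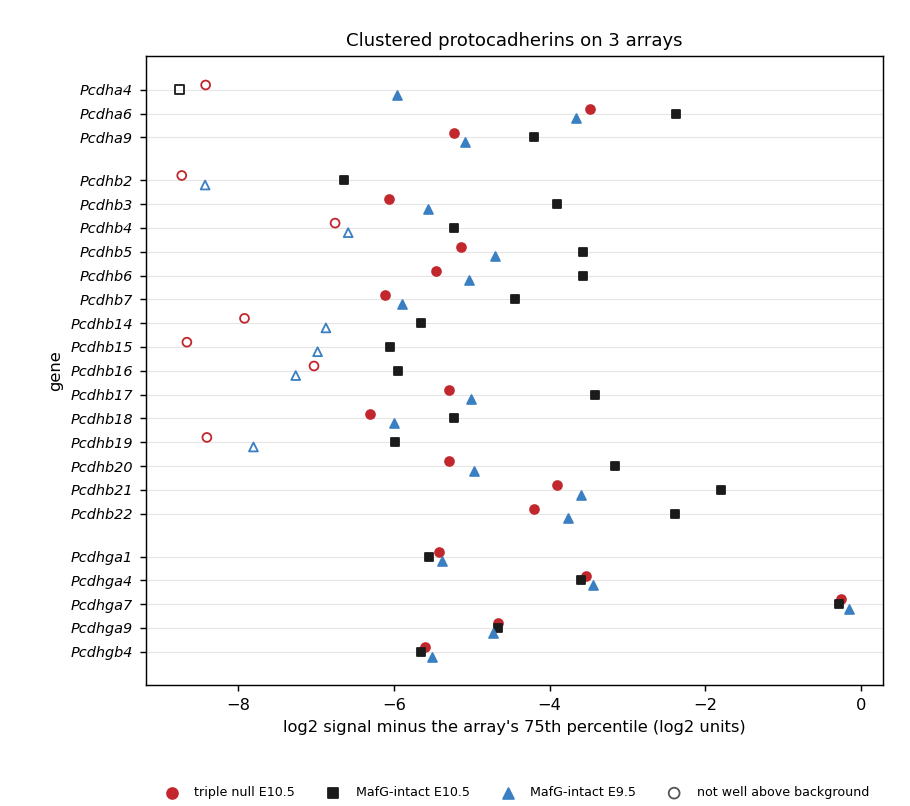
Levels of the 23 measured clustered protocadherins (log2 signal minus the 75th percentile of the array, horizontal axis), with the symbols of the plot of single-gene members. The 9 beta genes above background on every array have their square, the MafG-intact E10.5 array, to the right, the 6 others were measured only through that array, and the 3 symbols of each gamma gene lie together.

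Of the alpha genes, 3 of 14 had a probe. Pcdha6 lay at -3.48, -2.37 and -3.65 in the triple null, MafG-intact E10.5 and E9.5 pools and was 2.15-fold lower in the triple null than at E10.5. It was read by 1 of its 2 probes, the other (-0.32) not being well above background on any array. Pcdha9 was 2.03-fold lower, at -5.22, -4.20 and -5.09, with its 3 probes at -1.56, -1.04 and -0.47. Pcdha4 was above background in the E9.5 pool alone (-5.96, 17.1 scanner units), with a bound of at least 2.12-fold above MafG-intact E10.5 and at least 1.99-fold above the triple null.

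Gamma genes were level. Pcdhga1, Pcdhga4, Pcdhga7, Pcdhga9 and Pcdhgb4 differed by 0.13, 0.06, 0.03, -0.0075 and 0.05 between the E10.5 pools, and over 8 probes the range was -0.16 to 0.44. Pcdhga1 lay at -5.42, -5.55 and -5.38 in the triple null, MafG-intact E10.5 and E9.5 pools, and Pcdhgb4 at -5.60, -5.65 and -5.51. The 4 probes of Pcdhga7 ran from -4.96 to 3.24 on the triple null array. Whether any of them lies in the exons shared by all gamma transcripts is not known here, so the gamma values may not belong to 1 variant each.

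**Figure D3:**
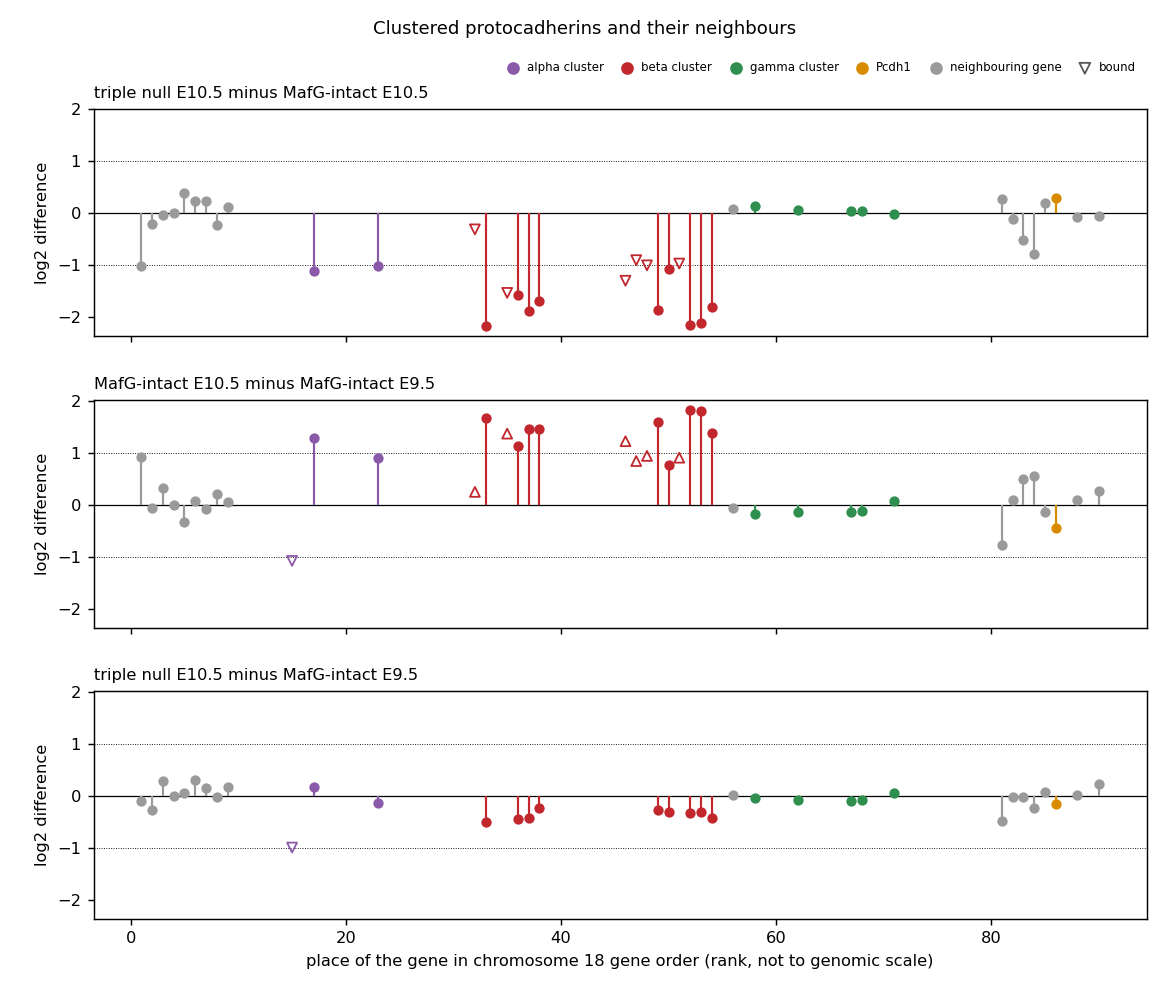
Log2 difference (vertical axes) of the clustered protocadherins and their neighbours by place in the gene order of chromosome 18 (horizontal axis, rank). The panels are 3 comparisons, with dotted lines at 2-fold. Open triangles are bounds, or for Pcdhb4, and Pcdhb14 in the middle panel, differences from a signal not well above background. Beta genes are below 0 in the top panel and above it in the middle panel, while gamma genes and Taf7 stay between -0.17 and 0.13 in both.

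In the order of the RefSeq table the alpha, beta and gamma genes follow each other, and Taf7, a general transcription factor gene between the beta and gamma genes, differed by 0.09. Within 10 genes of the clusters or inside them, 17 measured genes are no members. Of the 17, 1 was lower by 2-fold or more in the triple null (Cd14, -1.01), beside 4.47% of all genes. None was at least 2-fold higher, beside 0.982%, and the median was -0.03. Fchsd1 was at -0.79, Rell2 at -0.52 and Wdr55 at 0.40. Between the MafG-intact pools none of the 17 reached 2-fold, beside 4.12% of all genes higher and 1.07% lower. They ran from -0.77 (Diaph1) to 0.91 (Cd14). This window was chosen after the values were seen. The measured beta genes lay on both sides of the 6 neighbours Pcdhb8 to Pcdhb13, which failed the well-above-background call on every array.

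Over the whole family, 15 of the 38 members above background on both E10.5 arrays were lower by 2-fold or more in the triple null, beside 4.47% of all genes, and none was at least 2-fold higher, beside 0.982%. The 15 were the 9 beta genes with Pcdha6, Pcdha9, Pcdh10, Pcdh20, Cdh22 and Cdh16. Many members are dim, and dim genes were called more often: of all genes below the median level, 8.1% were at least 2-fold lower. The family median was -0.62, that of the single-gene members -0.12 and that of the clustered ones -1.34, beside 0.06 over all genes. The count was 2, beside 1.7% of all genes, with the normexp background correction, which is described last.

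**Figure D4:**
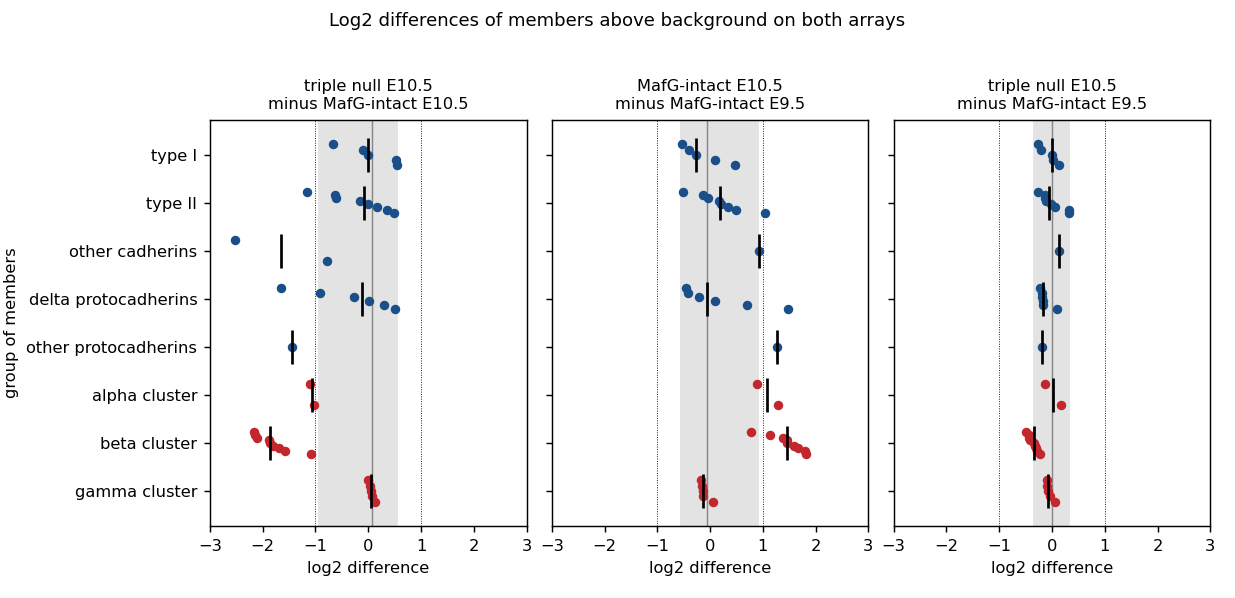
Log2 differences (horizontal axes) of members with signal above background in both pools compared, by group of members, with their median as a black bar, the 5th to 95th percentile of all genes as a grey band and dotted lines at 2-fold. The beta genes lie outside the band in the first and second panels, apart from Pcdhb18 in the second, and no member reaches 2-fold in the third.

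The MafG-intact pools, compared next, lie a day of development apart. Of 37 members with signal in both, 12 were higher by 2-fold or more at E10.5, beside 4.12% of all genes (7.4% of those below the median level), and none at least 2-fold lower, beside 1.07%. They were 8 of the 9 beta genes, with Pcdhb20 at 1.81, Pcdhb21 at 1.80 and Pcdhb3 at 1.67, together with Pcdha6 (1.28), Pcdh10 (1.48), Pcdh20 (1.26) and Cdh22 (1.04). Pcdhb18 was at 0.77 and Pcdha9 at 0.89. Among the bounds, Cdh16 was at least 7.75-fold higher at E10.5 and Pcdha4 at least 2.12-fold lower. Pcdhb4 was 2.57-fold and Pcdhb14 2.33-fold higher over their own E9.5 signals, which were not well above background, so these are no bounds. Over all genes above background in 1 of these pools alone, 128 had such a value 2-fold or more higher and 58 lower. With normexp, 1 member stayed past 2-fold, Pcdhb21 (1.29), beside 1.6% of all genes, and the beta median was 0.51. The beta median was 1.46 and the gamma median -0.14, beside -0.05 over all genes. Cdh13 (0.93) and Pcdh17 (0.70) were higher by less than 2-fold, and Cdh1 (-0.54), Cdh6 (-0.51), Pcdh1 (-0.46), Pcdh7 (-0.41) and Cdh3 (-0.40) were lower by less. This comparison shares its MafG-intact E10.5 array with the first one, so the opposite signs of the 2 are not independent.

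The third comparison, triple null E10.5 against MafG-intact E9.5, does not use that array. None of 37 members reached 2-fold in either direction, against 0.783% of all genes, and the differences ran from -0.50 (Pcdhb3) to 0.32 (Cdh24 and Cdh20). All 9 beta genes were on the lower side, as were 28 of the 37 members and 6074 of all 12521 genes. The beta genes ran from -0.50 to -0.23 with a median of -0.33, beside 0.01 over all genes. The 5th percentile of all genes was -0.34, and with normexp the beta median was -0.14. Pcdhb5 was at -0.44, Pcdhb22 at -0.43 and Pcdhb6 at -0.42, while the scanner software's error for the 9 genes ran from 0.18 to 0.40. The gamma median was -0.08, and the type I median -0.00063. No bound of a member reached 2-fold.

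Catenins and other junction partners moved little. Of 15 catenin and partner genes above background, none was 2-fold apart between the E10.5 pools, with a median of 0.17. The farthest was the neuronal alpha-catenin gene Ctnna2, at -2.58, -1.73 and -3.04 in the triple null, MafG-intact E10.5 and E9.5 pools, a difference of -0.86, followed by Ctnnd2, delta-catenin, at -0.48. Ctnna2 was the 1 gene of the list at least 2-fold higher at MafG-intact E10.5 than at E9.5 (1.31). The beta-catenin gene Ctnnb1 differed by 0.14, Ctnna1 by 0.17 and Ctnnd1 (p120 catenin) by 0.34. Of 7 repressors and processing enzymes, none was 2-fold apart, the farthest being Zeb1 (-0.31) and Snai2 (-0.26), both repressors of Cdh1, and the median was -0.10.

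Other genes with cadherin repeats went both ways. Of 11 measured in both E10.5 pools, Clstn2, a calsyntenin of synapses, (-1.22) and Celsr3, a seven-pass cadherin of axon tracts, (-1.19) were lower by 2-fold or more in the triple null. Dsg2, a desmosomal cadherin, was at least 2-fold higher (1.55, at -5.23, -6.78 and -5.25). Fat4 was at -0.97 and Dsc2 at 0.77. Of 16 regulators and effectors of clustered protocadherins, none was 2-fold apart, with a median of 0.17. The farthest were Ptk2b (0.82, dim at -5.09 and -5.91) and Cyfip2 (-0.68), and the DNA methyltransferase gene Dnmt3b was at 0.52, the structural maintenance gene Smchd1 at 0.29 and the cohesin gene Rad21 at 0.05.

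Markers of the cells that carry these cadherins were read beside them. Of 9 neuron markers, all above background on every array, 8 were lower by 2-fold or more in the triple null than at MafG-intact E10.5, Isl1 (-0.49) being the exception, and the summed level was 10.9, 41.5 and 11.1 times the 75th percentile in the triple null, MafG-intact E10.5 and E9.5 pools. Their median was -2.20, and 0.01 between the triple null and E9.5 pools. Of 6 neural progenitor markers 1 was at least 2-fold lower, Fabp7 (-1.44), Nes was at -0.81 and Hes5 at -0.47, Sox2 was level (-0.0020), and Pax6 (0.31) and Sox1 (0.53) were on the higher side, with a list median of -0.23. Their summed level, carried by the bright Hes5, Nes and Fabp7, was 51.5, 80.3 and 48.6. The part of the neurons in the beta, Pcdh10, Pcdh20 and Cdh22 results was not tested.

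All 8 epithelium markers were higher in the triple null pool than at MafG-intact E10.5, by 0.46 to 0.83 and none by 2-fold, with a summed level of 53.2, 31.4 and 54.3, beside Cdh1 at 0.55 and Cdh3 at 0.53. The 8 endothelium markers, beside Cdh5, lay between -0.16 and 0.33 with a summed level of 27.6, 23.9 and 25.6. Of 5 myoblast markers, beside Cdh15, 3 were measured in both E10.5 pools and all 3 lay lower by 2-fold or more, Myod1 passed background at MafG-intact E10.5 alone and Myf5 nowhere, with a summed level of 0.447, 0.953 and 0.331. Mesenchyme markers, beside Cdh11, ranged from -0.72 to 0.04 with a summed level of 5.32, 6.68 and 6.05. The part of these cells in the cadherin results was not tested either.

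Migrating neural crest and glia markers, beside Cdh6, Cdh7 and Cdh20, lay between 0.02 and 0.37 in the 4 genes above background, with a summed level of 1.27, 1.13 and 1.27. Yolk sac endoderm markers had a summed level of 9.07, 20.4 and 15.9, most of it from Afp. From E9.5 to E10.5 in MafG-intact embryos their median was -1.17, Amn (-2.58), Spp2 (-2.78) and Rhox5 (-1.17) being lower by 2-fold or more, Ttr at -0.43 and Afp at 0.52, and Apoa4 passed background at E9.5 alone. Of 5 such markers measured in both pools, 4 lay 2-fold or more below E9.5 in the triple null, a comparison in which no cadherin did.

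Far fewer members passed 2-fold under the normexp alternative. The processed signal has the background subtracted, whereas the normexp alternative models it, starts from the median spot intensity and adds an offset of 50 scanner units, which draws dim signals together by its construction. With it, 2 members were lower by 2-fold or more in the triple null than at MafG-intact E10.5, Pcdhb21 (-1.43) and Pcdhb22 (-1.03), beside 1.7% of all genes. Of the 15 members called on the processed signal, 14 kept their sign. At 1.5-fold, 12 of them were lower with normexp, and the share of all genes at that threshold is not given here. These 15 were picked on the same spots of the same arrays, so the kept signs are no independent check. Pcdhb18, whose unscaled signals were 13.6 and 37.9 scanner units, turned to 0.012. Pcdh10 stood at -0.97, Cdh22 at -0.90 and Cdh16 at -0.68. The beta median was -0.69, beside 0.11 for all genes, and the gamma median 0.23.

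**Figure D5:**
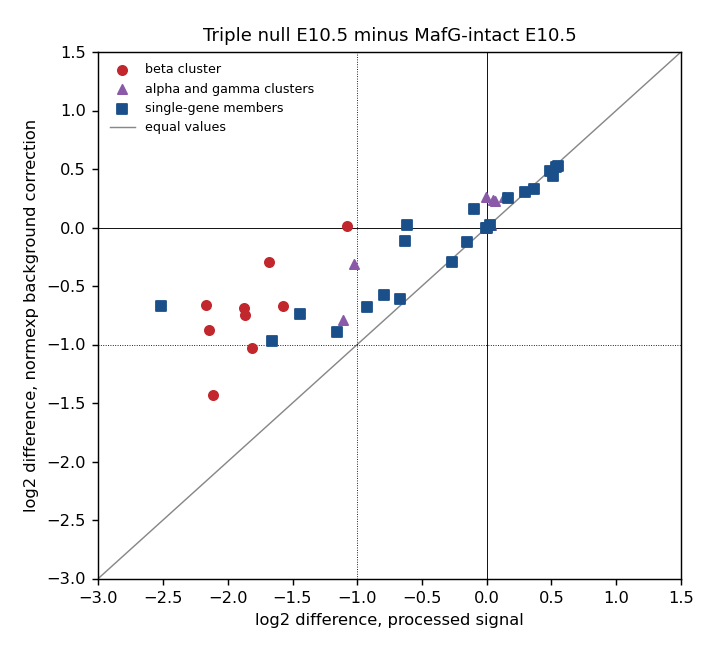
Log2 difference between triple null and MafG-intact E10.5 for each member above background on both arrays, on the processed signal (horizontal axis) and with the normexp correction (vertical axis), with a line of equal values and dotted lines at 2-fold. Of the 9 beta genes (circles), 8 stay below 0 on both axes and 2 stay past 2-fold.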

How the data were processed

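Per the file headers, the authors read 1-colour arrays (design 014868, annotation build mm7) with Agilent Feature Extraction 9.5.3.1, protocol GE1-v5_95_Feb07. The deposited values are intensities with background subtracted, and the value table the authors deposited holds the same intensity rounded (largest difference 0.497%). The log2 intensity was taken minus the 75th percentile of 43379 non-control spots, which was 1078, 1420 and 1064 on the triple null, MafG-intact E10.5 and E9.5 arrays. Outlier spots were left out, spots of a probe averaged, and probes named through RefSeq accessions (GRCm38.p6, names and gene order). A gene is the mean of its probes well above background on at least 1 array. With 1 array per group no test was made.

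Members and lists were chosen with earlier results of these data known. Named genes were those at least 2-fold apart or with a 2-fold bound, all type I cadherins, and from each partner list the genes 2-fold apart or else the 2 farthest. Further members and markers were added for context. The alternatives were normexp (offset 50, on median spot intensity), quantile scaling, the median of detected probes as scale, other dim-probe filters, the brightest probe, 3-fold and 1.5-fold thresholds, the value table, and, added after the data were seen, the software's significance flag. The steps were tested on simulated data. Python 3.11.15, pandas 2.3.3, numpy 2.4.6, matplotlib 3.10.9, R 4.3.3 and limma 3.58.1 were used.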

Additional observations from a re-analysis of the deposited data

How the results depend on the processing

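Results were recomputed under 10 alternatives. With no replicates, a median was taken to have moved when it shifted by more than the spot-to-spot SD of probes printed 10 times at that level, and a count when it changed by over 1.5 times. No paired analysis was possible because each group has 1 array. Values are given for triple null minus MafG-intact E10.5 (first), MafG-intact E10.5 minus E9.5 (second) and triple null minus E9.5 (last). With normexp, which draws dim signals together, members at least 2-fold lower fell to 2 in the first comparison (beta genes 2, 1.7% of all genes). Members at least 2-fold higher fell to 1 in the second (beta genes 1, 1.6% of all genes). The first medians became -0.12 for the family, 0.15 for type I, 0.010 for type II, -0.55 for alpha, -0.69 for beta and 0.23 for gamma. The second became 0.059 for the family, -0.11 for type II, 0.47 for alpha, 0.51 for beta and -0.24 for gamma, and the medians of the last comparison -0.064 for type I, -0.082 for alpha and -0.14 for beta. Pcdhb18 turned to 0.012 in the first. At 3-fold, 9 members were lower in the first comparison (1.92% of all genes) and 4 higher in the second (1.56%), all 4 beta genes. With no filter on dim probes, 15 beta genes were lower in the first (5.38% of all genes) and 13 higher in the second (5.22%), 1 member was lower in the second (2.29%), and 4 members (2 beta genes) were lower in the last (1.71%). The medians were then -0.15 for type II, -0.71 for alpha and -1.58 for beta in the first, 0.45 for alpha in the second and -0.27 for alpha in the last. With the significance flag, 14 beta genes were lower in the first (5.54% of all genes), 1 member in the second (1.90%) and 4 members (2 beta genes) in the last (1.32%), and the medians were -0.71 for alpha in the first, 0.52 for the family and 0.45 for alpha in the second and -0.27 for alpha in the last. The brightest probe gave -0.26 for type II and -1.33 for alpha in the first, 0.27 for type II in the second and -0.15 for alpha in the last. Quantile scaling gave -0.52 for the family in the first. The cause of the moves outside normexp was not tested. Scaling on detected probes, the value table, probes above background on all 3 arrays and the 1.5-fold threshold moved none of these counts and medians.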
